A study of Equus caballus with 14 samples.

Results

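The 2 genes described here, ENSECAG00000022135 and ENSECAG00000025076, were taken from 26740 Ensembl gene identifiers counted in day 13 endometrium and embryos of the horse. They were chosen by their measured levels: both were among the most counted genes of the pregnant endometrium, and both were more than 100-fold lower, but still counted, in the embryos. The difference between pregnant endometrium and embryos is therefore given as a description, without a test. Tests are given for pregnant against cyclic endometrium, for the pairing of embryos with endometrium and for the split of counts between both genes. The choice did not use the cyclic levels, the pairing or the split. It did use the pregnant and embryo levels that enter these tests. The comparison with cyclic endometrium is therefore not fully independent of the choice. The deposited files do not pair identifiers with gene symbols and the table of equine genes used here matched neither identifier, so no name, function or sequence is given for either gene.

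The study followed Warmblood mares through a pregnant cycle and a cyclic control cycle, each mare serving as its own control. Cyclic endometrium (n = 4) was from unbred cycles, pregnant endometrium (n = 5) from cycles after insemination with semen of a shared stallion, and the embryos (n = 5) were flushed from those pregnant uteri. The study left cyclic mare 5 out of RNA sequencing because of low quality. All mares received hCG before ovulation, and all samples date from day 13 after ovulation. A biopsy holds all cell types of the endometrium, and the embryonic tissue was sequenced after removal of the yolk sac fluid and the capsule. The genotype and age of the mares are not given in the sources used here. Defining markers of either tissue could not be looked up without symbols.

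The endometrium of the mare consists of a luminal epithelium and of glands that secrete into the uterine lumen, set in a stroma with vessels and immune cells. In the second week of pregnancy the equine embryo is still a free sphere that moves through the uterus, enclosed in a glycoprotein capsule and bathed in uterine fluid. The mare must recognise it in this period for the corpus luteum to be kept. Maternal and embryonic tissue are thus neighbours at this stage, without a fixed placenta between them.

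The endometrium libraries held between 21.8 and 46.9 M counts (M stands for 1000000) and the embryo libraries between 23.5 and 240 M. Embryo 1 stood apart, since its 10 most counted genes took 91.7% of its counts, against 17.5% to 33.9% in embryos 2 to 5. For this reason levels in embryos are given per 1000000 counts of the whole library (CPM) and also per 1000000 counts outside the 10 most counted genes of each library. ENSECAG00000022135 is itself among those 10 genes in every pregnant endometrium library, and there the set-aside genes leave the denominator only. A further scale, CPM after TMM scaling over the 10 samples of pregnancy, is used where it changes a value. Intervals around counts are exact 95% Poisson intervals and cover counting error only.

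ENSECAG00000022135 was higher in pregnant than in cyclic endometrium in each of the 4 mares with both samples. Its CPM in cyclic samples 1 to 4 was 1554, 939, 685 and 1253, and in pregnant samples 1 to 5 it was 3280.3, 5303, 2566, 3570.5 and 3046. The lowest pregnant sample lay above the highest cyclic sample, so the groups did not overlap. Of the 11892 genes tested below, 2.41% showed this and 11.3% were higher in all 4 mares. Cyclic samples had a mean of 1107 ± 378 CPM (SD, n = 4), and pregnant samples had one of 3553 ± 1045 CPM (SD, n = 5). By number of counts it was the gene of rank 66 in the mean of the cyclic samples and of rank 9 in the mean of the pregnant samples, and in the single pregnant libraries its rank was between 8 and 10.

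ENSECAG00000025076 showed no such separation. Its CPM in cyclic samples 1 to 4 was 924, 1977, 3358 and 1181, and in pregnant samples 1 to 5 it was 1578, 1774, 1748, 859 and 2557. The groups overlapped over most of their range, with the highest value in cyclic sample 3 and the lowest in pregnant sample 4. Cyclic samples had a mean of 1860.0 ± 1095 CPM (SD, n = 4), and pregnant samples had one of 1703 ± 605 CPM (SD, n = 5). The cyclic samples spread over 3.64-fold and the pregnant samples over 2.98-fold, which for ENSECAG00000022135 were 2.27-fold and 2.07-fold.

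**Figure D1:**
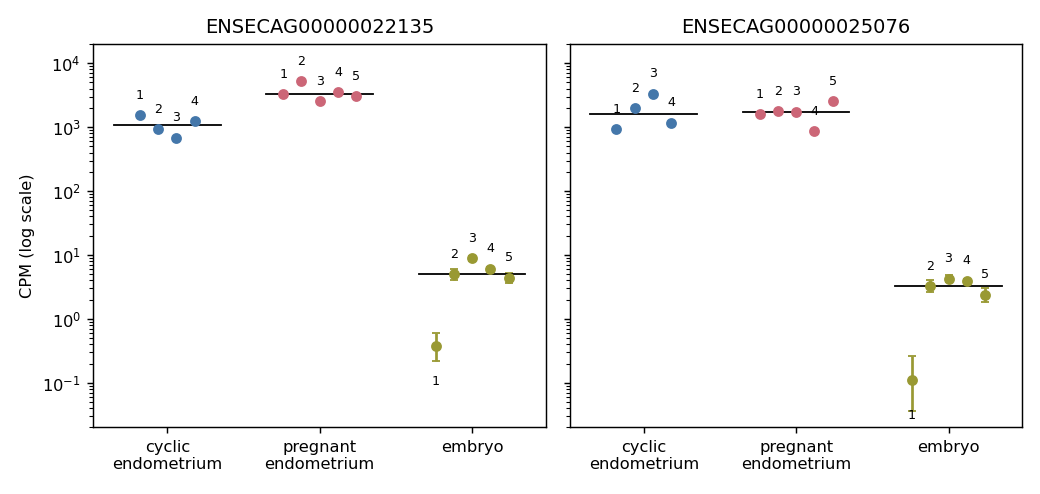
Level of both genes in all 14 samples, in CPM on a logarithmic axis. Points are single libraries with their replicate number, bars are exact 95% Poisson intervals and horizontal lines are group medians. The endometrium samples lie between 685 and 5303 CPM and the embryos between 0.112 and 8.90 CPM, with embryo 1 lowest for both genes.

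To ask whether the level in the endometrium changed with pregnancy, pregnant and cyclic samples were compared within mares across 11892 genes by the likelihood ratio test of edgeR, with a gene called at an adjusted p under 0.05 and a change over 2-fold. ENSECAG00000022135 rose by 1.72 on the log2 scale (SE 0.27), a 3.31-fold change with a 95% interval from 2.30 to 4.74, and its adjusted p was 1.63e-07. The interval takes the fitted dispersion as known, so with so few mares it can be too narrow. In single mares 1 to 4 the pregnant sample was 2.11, 5.65, 3.75 and 2.85 times as high as the cyclic sample. Of all genes tested, 1.14% were called higher in pregnancy, 2.41% had all pregnant samples above all cyclic samples and 11.3% were higher in all 4 mares. The call did not hold under the quasi-likelihood test of edgeR, where the adjusted p was 0.182 with the same change of 1.72 and 1 gene was called in all. High levels in pregnant endometrium were part of how the gene was chosen, so the comparison is not fully independent of the choice.

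ENSECAG00000025076 was not called. Its log2 change was -0.23 (SE 0.33) with a 95% interval from -0.87 to 0.42, or 0.546-fold to 1.34-fold. The adjusted p of the edgeR likelihood ratio test was 0.917. Here too the fitted dispersion was taken as known, so changes outside this interval are not excluded. In mare 1 the pregnant sample was 1.71 times as high as the cyclic sample. In mares 2, 3 and 4 the cyclic sample was the higher by 1.11, 1.92 and 1.37 times. The direction thus differed between mares, and without mare 3 the log2 change was 0.039. For either gene, including the rise of ENSECAG00000022135, a change in the number of expressing cells and in RNA per cell cannot be told apart in biopsies.

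**Figure D2:**
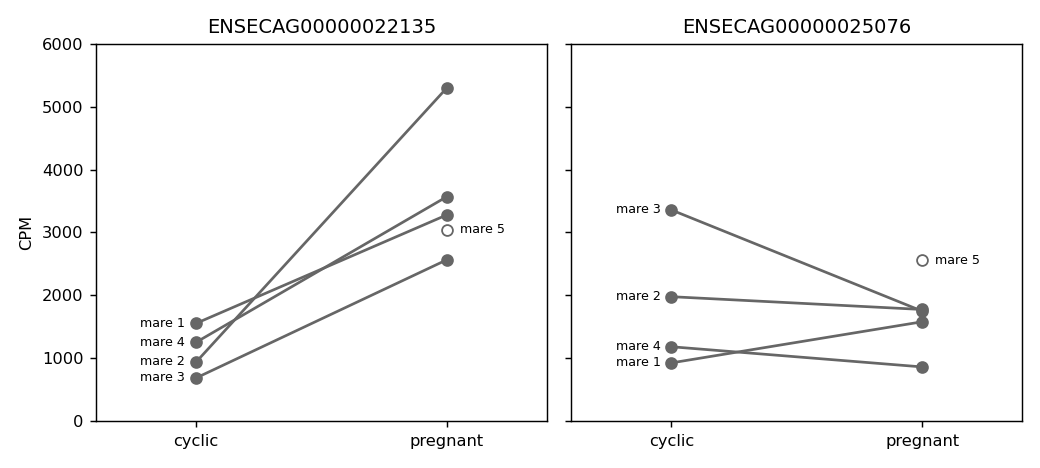
Level of both genes in cyclic and pregnant endometrium, in CPM. Lines join the samples of a mare and the open point is mare 5, whose cyclic sample the study left out for low quality. For ENSECAG00000022135 all 4 lines go up, and for ENSECAG00000025076 a single line, that of mare 1, does.

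Of the genes tested, 29 had a mean level over the 9 endometrium samples of at least that of ENSECAG00000025076. Of these, 1 was called higher in pregnancy, which was ENSECAG00000022135, and 0 were called lower. Of all 11892 genes tested, 136 (1.14%) were called higher and 77 lower. The cyclic mean of ENSECAG00000022135 was 1112 TMM-scaled CPM, below both group means of ENSECAG00000025076 (1933 in cyclic, 1699 in pregnant samples). It was thus on this list through its pregnant samples, whose levels were part of the choice, and the count is a description only. Over those 9 samples the log2 levels of both genes had a Pearson correlation of -0.27, as a description without a test, since samples of the same mare and of the same group are not independent.

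The gene with the most similar course differed between them. For ENSECAG00000022135 it was ENSECAG00000017673, with a Pearson correlation of 0.970 over the 9 endometrium samples among 11891 genes compared, of which 84 exceeded 0.9. ENSECAG00000017673 had 188 ± 24.3 TMM-scaled CPM in cyclic (SD, n = 4) and 283 ± 30.1 in pregnant endometrium (SD, n = 5). Between 59 and 4990 of its reads were counted in the embryos. For ENSECAG00000025076 it was ENSECAG00000006075, with a correlation of 0.972, and 45 genes exceeded 0.9. ENSECAG00000006075 had 7.51 ± 7.72 TMM-scaled CPM in cyclic (SD, n = 4) and 6.37 ± 4.14 in pregnant endometrium (SD, n = 5), and between 0 and 481 counts in the embryos. With 9 samples and this many genes, correlations of this size describe the samples and carry no p-value.

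The split of counts between both genes does not depend on the depth or the scaling of a library. ENSECAG00000022135 held 62.7%, 32.2%, 16.9% and 51.5% of the counts of both genes in cyclic samples 1 to 4. In pregnant samples 1 to 5 it held 67.5%, 74.9%, 59.5%, 80.6% and 54.4%. The share was higher in pregnancy in all 4 mares, with a mean difference in the log2 ratio of both genes of 1.94 ± 1.16 (SD, n = 4). This difference follows from the changes of each gene given above and is not a separate result. It also rests on the pregnant levels that were part of the choice. The comparison of this split was added after the values were seen, and its exact two-sided sign-flip permutation p was 0.125, the smallest that 4 pairs allow. The highest cyclic share (mare 1) lay above the pregnant shares of mares 3 and 5, so the groups overlapped.

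In the embryos both genes were counted in every library. ENSECAG00000022135 had 17, 117, 452, 1462 and 114 counts in embryos 1 to 5, and ENSECAG00000025076 had 5, 77, 217, 947 and 62. The highest counts were those of embryo 4, which was also the deepest library. The smallest level that 3 counts would give was between 0.0125 and 0.128 CPM in the embryo libraries, so all values were above it.

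Per whole library, ENSECAG00000022135 had 0.381, 4.98, 8.90, 6.10 and 4.41 CPM in embryos 1 to 5. The interval of embryo 1 was 0.222 to 0.611 and lay below those of the other embryos. ENSECAG00000025076 had 0.112, 3.28, 4.27, 3.95 and 2.40 CPM, with an interval of 0.0364 to 0.262 in embryo 1. Embryos 2 to 5 were within 2.02-fold of each other for the former gene and within 1.78-fold for the latter. Their means were 6.10 ± 2.00 CPM (SD, n = 4) and 3.47 ± 0.83 CPM (SD, n = 4), and with embryo 1 the means were 4.95 ± 3.09 CPM (SD, n = 5) and 2.80 ± 1.67 CPM (SD, n = 5).

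Outside the 10 most counted genes, embryo 1 moved towards the others. ENSECAG00000022135 then had 4.61, 7.54, 10.8, 7.49 and 6.24 CPM in embryos 1 to 5. The interval of embryo 3 (9.81 to 11.8) lay above the other intervals, and that of embryo 1 (2.69 to 7.38) overlapped with those of embryos 2, 4 and 5. ENSECAG00000025076 had 1.36, 4.96, 5.18, 4.85 and 3.40 CPM. Here embryos 2, 3 and 4 did not differ beyond their intervals, and embryo 1 (0.440 to 3.17) overlapped with embryo 5 (2.60 to 4.35) alone. On this scale the order from high to low was embryo 3, 2, 4, 5 and 1 for both genes, and per whole library it was embryo 3, 4, 2, 5 and 1 for both. With TMM scaling embryo 1 was highest for ENSECAG00000022135 (12.1 CPM) and embryo 2 for ENSECAG00000025076 (3.90 CPM). The TMM factor of embryo 1 was 0.0315, against 0.843 to 1.16 in embryos 2 to 5. The 12.1 CPM of embryo 1 rests on 17 counts and on this factor. Values of 1 embryo share a library and its depth, so a common order of both genes is not a repeated measurement.

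The distance between the tissues was large for both genes. On mean CPM, pregnant endometrium was 717 times as high as the embryos for ENSECAG00000022135 and 608 times for ENSECAG00000025076. With TMM scaling these ratios were 252 and 251, and outside the 10 most counted genes they were 527 and 469, so their size depended on the scale. Without embryo 1 and endometrium 1 the ratios on mean CPM were 594 and 499. The lowest pregnant sample was 288 times as high as the highest embryo for ENSECAG00000022135 and 201 times for ENSECAG00000025076, and with TMM scaling these values were 106 and 110.1.

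Of the 31 genes with at least the mean CPM of ENSECAG00000025076 in pregnant endometrium, 8 were over 100-fold lower in embryos, both genes included, and all 8 were counted in all embryos. The smallest ratio among these 8 was 222 and the largest among the remaining genes was 38.1. The boundary of 100-fold thus fell into a gap. These values come from the contrast by which the genes were picked.

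To ask whether the embryo followed the endometrium of its own number, levels were set side by side in the 5 pairs. For ENSECAG00000022135 the endometrium was 8599, 1065, 288, 586 and 691 times as high as the embryo in pairs 1 to 5. With TMM scaling the ratios were 140.4, 465, 167, 336 and 315, so that pair 1 moved from the highest to the lowest ratio. The TMM ratio of pair 1 rests on the factor of 0.0315 of embryo 1. On CPM of the whole library, the highest endometrium value (pair 2) went with a middle embryo value, and the highest embryo value (pair 3) with the lowest endometrium value. For ENSECAG00000025076 the ratio was 14065, 541, 409, 218 and 1067 in pairs 1 to 5, and with TMM scaling it was 229.6, 236, 237, 125 and 487. On CPM of the whole library, the highest endometrium value (pair 5) went with the lowest value of embryos 2 to 5, and the lowest endometrium value (pair 4) with a value near the highest.

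If embryo levels had followed the same-numbered endometrium, the log2 ratios would vary less within the actual pairs than in other pairings. Their SD was 1.85 for ENSECAG00000022135, against a median of 1.81 over all 120 pairings of embryos with endometrium samples (exact one-sided permutation p = 0.633). For ENSECAG00000025076 the SD was 2.33 against a median of 2.34 (exact one-sided permutation p = 0.500). Per whole library, log2 levels spread more in embryos (SD 1.81 and 2.22) than in pregnant endometrium (SD 0.39 and 0.57). The smallest SD over all pairings was 1.53 and 1.71, so on this scale the SD could change little with the pairing. The smallest p that 5 pairs allow is 0.00833, and no correlation is given for so few pairs. Outside the 10 most counted genes the SDs were 0.646 and 1.07 with exact permutation p-values of 0.642 and 0.583, and with TMM scaling they were 0.727 and 0.696 with exact permutation p-values of 0.583 and 0.792. With embryo 1 left out, the exact permutation p-values per whole library were 0.833 and 0.917. No following was detectable with 5 pairs, which does not show that there was none.

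**Figure D3:**
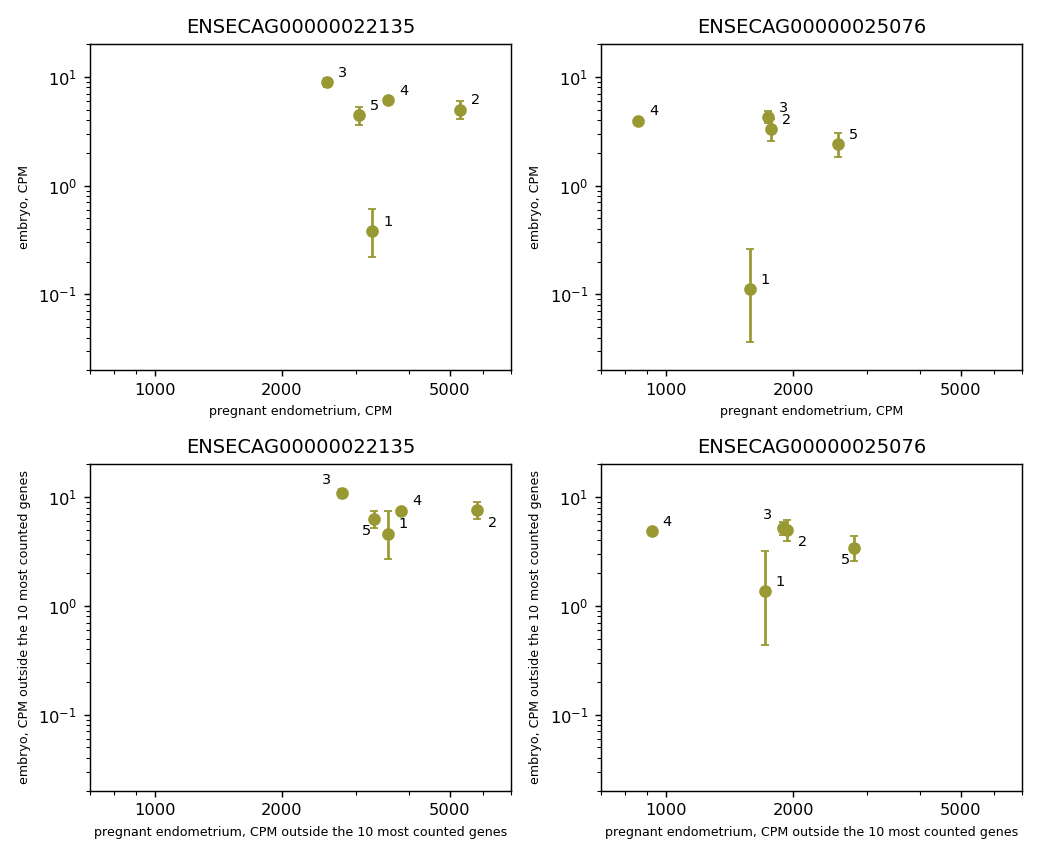
Level in the embryo against the level in the endometrium of the same number, on logarithmic axes, for both genes (columns), per whole library (upper row) and outside the 10 most counted genes of each library (lower row). Points carry the pair number and bars are exact 95% Poisson intervals of the embryo counts. In the left column the highest embryo point, number 3, is at the lowest endometrium value, and embryo 1 is close to the others in the lower row for ENSECAG00000022135.

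The split between both genes, which is free of scaling, was also set side by side in the pairs. ENSECAG00000022135 held 77.3%, 60.3%, 67.6%, 60.7% and 64.8% of the counts of both genes in embryos 1 to 5. The exact 95% binomial intervals were 54.6 to 92.2, 53.1 to 67.2, 63.9 to 71.1, 58.7 to 62.6 and 57.2 to 71.8%. All embryo shares lay within the range of the pregnant endometrium, and all but that of embryo 1 lay between 60.3% and 67.6%.

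In 4 of the 5 pairs the intervals of embryo and endometrium were apart. The embryo share was lower in pairs 2 and 4, where the endometrium held 74.9% and 80.6%, and higher in pairs 3 and 5, where it held 59.5% and 54.4%. In pair 1 the embryo had 22 counts of both genes and its interval included the share of the endometrium. The mean difference in the log2 ratio was -0.11 ± 1.01 (SD, n = 5), higher in 3 of 5 embryos, with an exact two-sided sign-flip permutation p of 0.813, where the smallest possible is 0.0625. This test asks whether the ratio is shifted between the tissues. The mean difference is the same under any pairing, so the test does not bear on whether embryos followed their own endometrium.

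**Figure D4:**
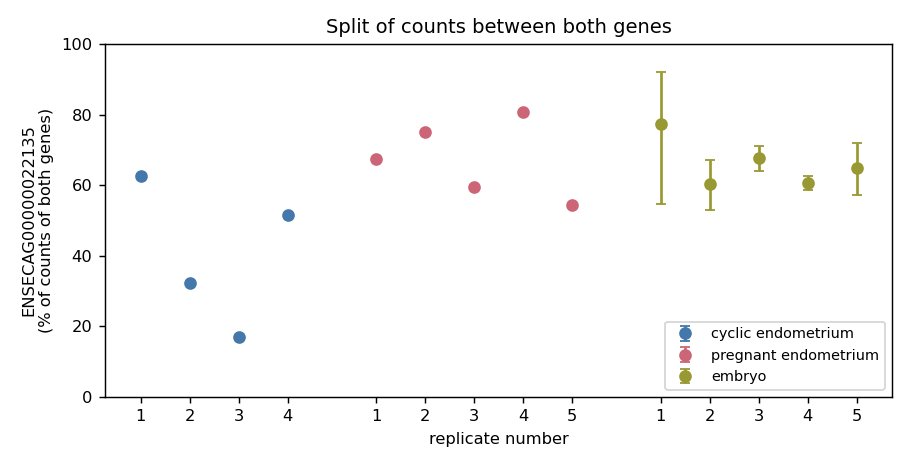
Share of ENSECAG00000022135 among the counts of both genes in each library, in percent, with exact 95% binomial intervals that cover counting error only and are smaller than the points in endometrium. Cyclic samples range from 16.9% to 62.7%, pregnant samples from 54.4% to 80.6% and embryos from 60.3% to 77.3%.

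Other genes with the same distribution were then used for comparison. A total of 171 further genes had at least 100 CPM in pregnant endometrium on average and were over 100-fold lower in embryos. Low percentages in embryos thus follow from the choice of these genes, as they do for both genes described here. Of these, 109 were counted in all embryos, as both genes described here were, and the number with 0 counts was 35, 6, 9, 7 and 32 in embryos 1 to 5. Outside the 10 most counted genes, the embryo level of ENSECAG00000022135 was 0.129%, 0.130%, 0.388%, 0.195% and 0.188% of the level in endometrium 1 to 5. For ENSECAG00000025076 it was 0.0790%, 0.256%, 0.273%, 0.524% and 0.122%.

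The median of the 171 genes was 0.215%, 0.256%, 0.133%, 0.161% and 0.265%. Their summed level was 0.351%, 0.308%, 0.210%, 0.258% and 0.223%. Embryo 3, where ENSECAG00000022135 had its highest percentage, had the lowest median and the lowest sum. Embryo 1, where ENSECAG00000025076 had its lowest percentage on 5 counts, had the highest sum. Among the 6 further genes that were as abundant in pregnant endometrium as ENSECAG00000025076 or more so, the percentages ranged from 0.181 to 1.88% in embryo 1 and from 0.00173 to 0.384% in embryo 4. The percentages of such genes thus differed within a library, and they are given without their counting error. The source of the counts in the embryos was not tested.

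**Figure D5:**
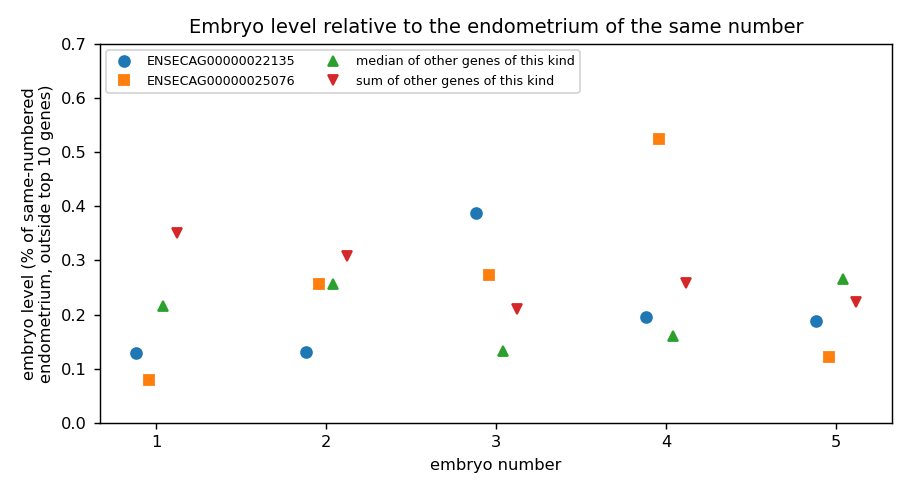
Level in each embryo as a percentage of the level in the endometrium of the same number, both outside the 10 most counted genes of their library, for both genes and for the median and the sum of the 171 further genes. All values lie between 0.0790% and 0.524%, and the order of the symbols differs between embryos. Low percentages follow from the choice of the genes.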

How the data were processed

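RNA was sequenced from 4 cyclic and 5 pregnant endometrium samples and 5 embryos of mares. The authors deposited raw read counts per Ensembl gene, taken without change. Per the study's methods, cutadapt 1.11 removed the adapters, and mapping to the equine EquCab reference and counting were done in CLC Genomics Workbench. The library kit was directional, but the use of strand in counting and the handling of multi-mapped reads are not stated, so counts of overlapping or near-identical genes are uncertain.

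The members and lists were chosen with earlier results of these data known. Pregnant and cyclic endometrium were compared with edgeR 4.0.16 in R 4.3.3 by the likelihood ratio test stated by the study, on genes over 4 CPM in at least 4 samples, a filter that both genes passed in all 9 samples. The mare entered as a block, from the replicate number and the paired design that the study describes. Deviations of same-numbered samples from their group means correlated between 0.0903 and 0.535. Values for differently numbered samples were not kept for comparison, so these correlations do not test the pairing. Mare 5 contributed to filter and scaling only. P-values were adjusted by Benjamini-Hochberg over all genes tested. Embryos and endometrium were compared descriptively, and pairs with exact permutation tests, unadjusted for the 2 genes. Besides both genes, the gene with the highest Pearson correlation over the endometrium samples (log2 CPM, prior count 2) was named for each. Pathway and marker lists need symbols and were not used. In a chi-square comparison of all 91 pairs of libraries, each gave at least 52.1 per degree of freedom, and none was treated as a duplicate. The fits were tested on simulated data.

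Alternatives were the quasi-likelihood test, no block, DESeq2 1.42.0, other scalings and filters, a joint fit of all samples and the omission of each replicate. The quasi-likelihood test without a block, and the omission of embryo 1 outside the 10 most counted genes, were added after the data were seen.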

Additional observations from a re-analysis of the deposited data

Results flagged for a closer look

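In 15 groups of values for both genes (levels by group, ratios and shares), the gap between an extreme sample and the next was set against the whole range. In 2 groups this gap was large, where chance gives 0.75 such groups (about 1 in 20). Both were pair 1 of endometrium and embryo, so they share the same libraries and are not independent. On log2 ratios the gap took 0.615 and 0.619 of the range, which is not past the critical value. For ENSECAG00000022135 the endometrium was 8599 times as high as the embryo in pair 1, against 1065 in the next pair, and the gap took 0.907 of the range. For ENSECAG00000025076 the ratio was 14065, against 1067 in the next pair, and the gap took 0.939 of the range. The embryo values behind these ratios were 17 and 5 counts in the library whose 10 most counted genes took 91.7% of the counts. Outside those genes the ratios of pair 1 were 774 and 1265, against highest values of 770 and 820 in the other pairs. With TMM scaling, where embryo 1 had a factor of 0.0315, they were 140.4, the lowest of the 5 pairs, and 229.6, between 125 and 487 in the other pairs. Of these 3 scales, pair 1 was thus far from the others on that of the whole library alone.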

How the results depend on the processing

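For pregnant against cyclic endometrium, ENSECAG00000022135 was called under 12 of 14 alternatives, with adjusted p-values from 9.26e-11 to 0.182 and log2 changes from 1.53 to 1.93. The exceptions were the quasi-likelihood tests of edgeR, with the replicate block (log2 change 1.72, adjusted p 0.182, 1 gene called in all, 1354 at an unadjusted p under 0.05) and without it (1.67, adjusted p 0.0598, 19 genes called in all). The likelihood ratio test without the replicate block called 179 genes and changed the call of neither gene (log2 changes 1.67 and -0.19). ENSECAG00000025076 was called under 0 of 14 alternatives, and omission of a mare gave log2 changes from -0.56 to 0.039. The number of genes called was 213 in the main comparison, 45 in a joint fit of all samples and between 133 (without mare 3) and 455 (without mare 1) when a replicate was omitted, and the cause was not tested. The log2 ratio of both genes, embryo minus endometrium, lay between -0.32 and 0.22 when a pair was omitted. The test of embryo against same-numbered endometrium stayed on the same side of 0.05 under all alternatives, although with 4 pairs its smallest p is 0.0417. Counting error was widest in embryo 1, with 17 and 5 counts in a library of 44.6 M, of which 3.69 M lay outside its 10 most counted genes.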
